A study of Mus musculus with 24 samples.

Results

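The core circadian clock of mammals was followed here through 10 genes of the mouse, Clock, Arntl (which encodes BMAL1), Per2, Per3, Cry1, Cry2, Nr1d1, Nr1d2, Dbp and Tef, chosen by name and read as counts in every library. All 10 were found among the 45468 genes of the tables, and all 10 passed the filter on low counts (a group mean of 10 counts or more in any group) that left 17159 genes to be tested. The lowest count of any of them in a library was 92.

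The clock is a transcriptional feedback loop that runs in most cells of the body. CLOCK and BMAL1 form a heterodimer that binds E-boxes and switches on the Per and Cry genes, whose proteins return to the nucleus and repress the dimer. The same dimer drives Nr1d1 and Nr1d2, which encode the repressors REV-ERBα and REV-ERBβ of Arntl and Clock, and Dbp, an output gene whose PAR bZIP protein, like the related TEF, binds D-boxes. In endothelium the clock is known for daily rhythms of vascular tone, coagulation and leukocyte adhesion, and Per1 and Per2 can also be induced acutely by glucocorticoids and other stimuli.

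The study sequenced poly-A RNA from brain endothelial fractions of 2 genotypes at 4 stages, with 3 libraries a group and 24 in all. The KO mice (Sox17iECKO) were Sox17flox/flox and carried Cdh5(PAC)-Cre-ERT2, a Cre recombinase made in endothelial cells and switched on by tamoxifen. The wt mice were also Sox17flox/flox and were also given tamoxifen, but lacked the Cre, so the comparison of KO with wt includes the presence of the active Cre. Sox17 encodes a SoxF transcription factor of arterial endothelium. The stages were the embryonic stage E15.5 (2 injections of 1 mg into the dam, on days 11.5 and 13.5), postnatal days 5 and 9 (P5 and P9; 100 µg on postnatal day 1) and Adult (4 injections of 1.5 mg on alternate days at 6 weeks of age, with collection 1 week later). Cells were depleted of CD45+ leukocytes and then selected on CD31 beads, after dissociation with a neural tissue kit at E15.5 and P5 and an adult brain kit at P9 and in Adult. The libraries are labelled as independent biological replicates. The hour of collection, sex and pooling of animals are not given in the sources used here. The part of the hour in any difference between groups was not tested.

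Libraries held 12301779 to 19830600 counts, and replicates correlated with a Pearson r of 0.971 to 0.990 across genes. The lowest r was within P9 KO (0.971 to 0.985) and the highest within P9 wt (0.989 to 0.990). Sox17 averaged 9.12 CPM in KO and 90.5 CPM in wt at E15.5, 16.7 and 277 CPM at P5, 23.4 and 333 CPM at P9, and 52.6 and 296 CPM in Adult. Each of the 9 endothelial markers was detected in every group, and their summed level was 3842 to 4578 CPM in KO and 3725 to 4377 CPM in wt at E15.5, 15304 to 19191 and 14237 to 14695 CPM at P9, and 9245 to 10064 and 9963 to 10683 CPM in Adult. Other cells remained: oligodendrocyte markers summed to 16179 to 24111 CPM in Adult KO and 20275 to 24496 CPM in Adult wt. The E15.5 libraries numbered 3 stood apart in ependyma and choroid plexus markers, at 44.4 CPM in KO and 50.9 CPM in wt, against 259 to 534 CPM in the other 4 E15.5 libraries, and in pericyte markers, at 726 and 632 CPM against 1334 to 1876 CPM. Leaving both out changed the call of 1 clock gene in 1 comparison, Tef averaged over stages.

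**Figure D1:**
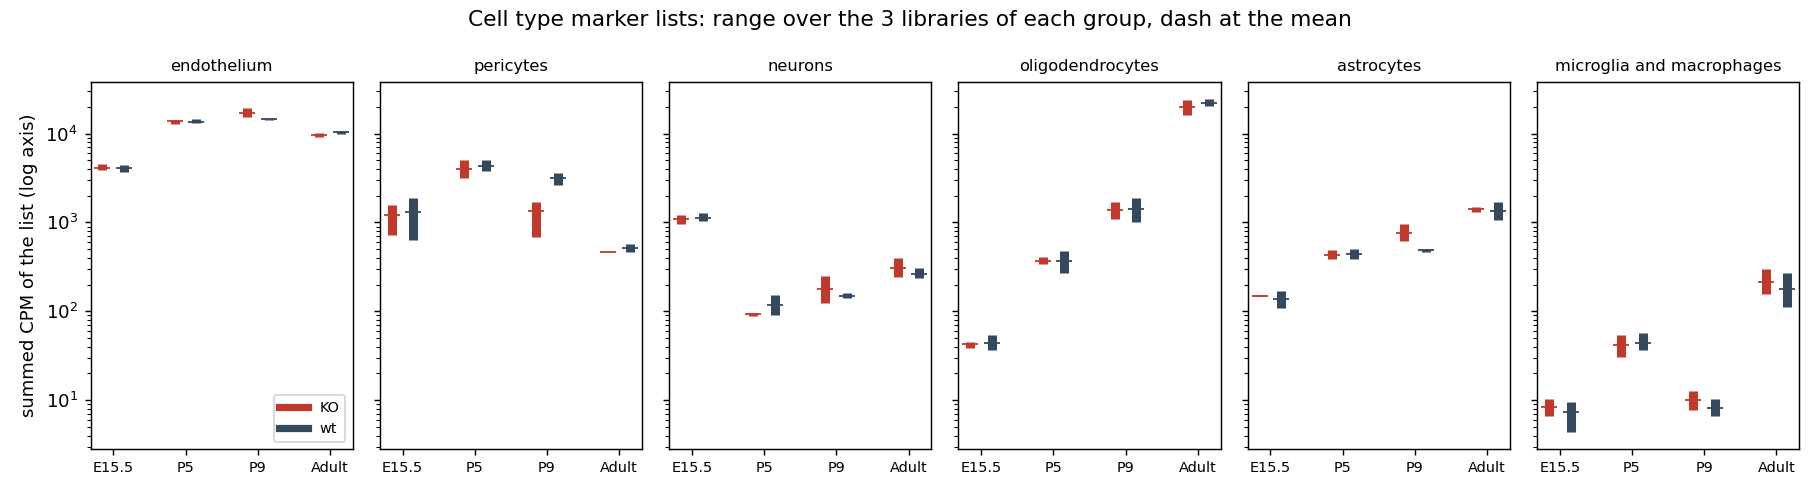
Summed CPM of 6 lists of cell type markers (log axis) by stage, KO left of wt; each bar spans the 3 libraries of a group and the dash is their mean. The endothelial sum was lowest at E15.5, the oligodendrocyte sum was highest in Adult, and the pericyte sum of the P9 KO libraries, 686 to 1701 CPM, lay below that of the P9 wt libraries, 2644 to 3645 CPM.

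Positions are given on build mm10. The genes of the positive arm are Clock (ENSMUSG00000029238, chr5:76209868-76304792, minus strand) and Arntl (ENSMUSG00000055116, chr7:113207465-113314122, plus). Those of the negative arm are Per2 (ENSMUSG00000055866, chr1:91415982-91459324, minus), Per3 (ENSMUSG00000028957, chr4:151003652-151044665, minus), Cry1 (ENSMUSG00000020038, chr10:85131702-85185054, minus) and Cry2 (ENSMUSG00000068742, chr2:92403646-92434043, minus). The REV-ERB genes are Nr1d1 (ENSMUSG00000020889, chr11:98767932-98775333, minus) and Nr1d2 (ENSMUSG00000021775, chr14:18204054-18239127, minus), and the PAR bZIP genes are Dbp (ENSMUSG00000059824, chr7:45705088-45710155, plus) and Tef (ENSMUSG00000022389, chr15:81802421-81826861, plus). Counts are of the whole gene on 1 strand. Per3 overlaps Camta1 and Clock overlaps 2 genes named only by clone on the same strand. How reads in such overlaps were counted is not given in the sources used here, and the counts of Per3 and Clock are uncertain to that extent.

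The sequences that carry the loop are its promoter elements. RefSeq windows from 250 bases before to 50 after a start site (build GRCm38.p6, the same assembly as mm10) were found for 9 of the 10 genes, in 13 windows. Per2 had no window and was not searched. The windows were searched on both strands for the E-box CACGTG, its variant CACGTT, the D-boxes TTATGTAA and TTACGTAA, and the ROR and REV-ERB elements TAGGTCA and TGGGTCA. Matches are set in capitals in the gene's own direction, so that a CACGTT of the other strand reads AACGTG. The 5 windows shown are those of Per3 and Nr1d1, which rose most between E15.5 and P5, 1 of the 2 windows each of Arntl and Tef, which rose in P9 KO, and that of Cry1, which holds 2 of the elements. Each of the 5 holds a searched clock element, as did 7 of the 13 windows. Nr1d2, which rose nearly as much as Per3, and Clock, which also rose in P9 KO, hold none.
Per3, chr4:151044616-151044915, minus strand: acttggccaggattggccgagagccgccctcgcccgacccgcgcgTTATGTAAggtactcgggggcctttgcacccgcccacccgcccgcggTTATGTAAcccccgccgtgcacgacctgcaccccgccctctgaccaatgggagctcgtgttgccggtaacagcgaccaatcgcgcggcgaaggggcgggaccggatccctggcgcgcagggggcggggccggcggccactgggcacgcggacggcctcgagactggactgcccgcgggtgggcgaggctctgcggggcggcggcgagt
Nr1d1, chr11:98775328-98775627, minus strand: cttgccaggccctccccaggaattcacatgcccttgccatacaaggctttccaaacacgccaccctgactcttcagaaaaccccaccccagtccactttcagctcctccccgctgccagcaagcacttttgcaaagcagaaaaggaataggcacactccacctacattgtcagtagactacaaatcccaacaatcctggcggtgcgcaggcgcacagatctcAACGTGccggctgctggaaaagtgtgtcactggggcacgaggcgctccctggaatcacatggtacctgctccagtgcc
Arntl, chr7:113207261-113207560, plus strand: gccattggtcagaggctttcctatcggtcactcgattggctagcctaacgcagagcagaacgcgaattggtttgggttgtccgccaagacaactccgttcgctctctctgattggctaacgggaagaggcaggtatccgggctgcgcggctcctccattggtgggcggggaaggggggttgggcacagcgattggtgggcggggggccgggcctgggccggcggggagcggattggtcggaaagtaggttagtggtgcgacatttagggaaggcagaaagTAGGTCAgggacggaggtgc
Tef, chr15:81802423-81802722, plus strand: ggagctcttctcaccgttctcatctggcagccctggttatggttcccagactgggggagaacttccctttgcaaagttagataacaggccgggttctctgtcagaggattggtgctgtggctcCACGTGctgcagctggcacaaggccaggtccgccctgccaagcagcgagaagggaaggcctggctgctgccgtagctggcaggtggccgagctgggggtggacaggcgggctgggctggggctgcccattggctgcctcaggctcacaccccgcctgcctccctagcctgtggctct
Cry1, chr10:85185005-85185304, minus strand: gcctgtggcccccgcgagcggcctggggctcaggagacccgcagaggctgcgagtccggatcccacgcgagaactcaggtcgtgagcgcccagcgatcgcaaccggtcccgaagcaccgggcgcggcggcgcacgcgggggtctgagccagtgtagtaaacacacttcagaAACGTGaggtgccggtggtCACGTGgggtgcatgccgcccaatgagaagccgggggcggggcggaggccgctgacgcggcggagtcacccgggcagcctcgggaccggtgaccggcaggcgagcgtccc

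Per3 held 2 copies of the D-box TTATGTAA, starting 205 and 158 bases before its start site, a motif found in 0.938% of all 32851 windows. The E-box CACGTG stood 60 bases before the start of Cry1, with the variant 79 bases before it, and 127 and 138 bases before the starts of the 2 Tef windows, against 7.15% of all windows for CACGTG and 4.68% for CACGTT. Nr1d1 held the variant 28 bases before its start and Cry2 166 bases before. TAGGTCA began 31 bases after the start in 1 of the 2 Arntl windows and was present in 2.61% of all windows. Core letters of SOX sites were looked for as well. ATTGTT was found in 1 of the 13 windows, that of Nr1d1, 62 bases before the start on the other strand (10.7% of all windows), and ATTGTG in none of the 13 (11.3% of all windows). No searched clock element lay in the windows of Clock, Nr1d2 or Dbp. These matches are letters in a short window and say nothing of binding.

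At P9 the clock genes differed between KO and wt endothelial fractions: 6 of the 10 rose and 1 fell. Per2, a repressor of the loop, was 4.21-fold higher in KO, and Arntl, the activator, was 1.74-fold higher. Tef, Cry2, Cry1 and Clock were 1.60-, 1.48-, 1.36- and 1.24-fold higher, and Nr1d2 was lower (0.745-fold). The comparison asks what loss of endothelial Sox17 changes at each stage of brain development. A gene passed where the adjusted p of edgeR's quasi-likelihood test over all genes was under 0.05. Of all genes tested, 28% passed at P9, with 13.5% higher and 14.6% lower. The median log2 fold change was 0.38 over the clock genes and 0.02 over all genes.

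**Figure D2:**
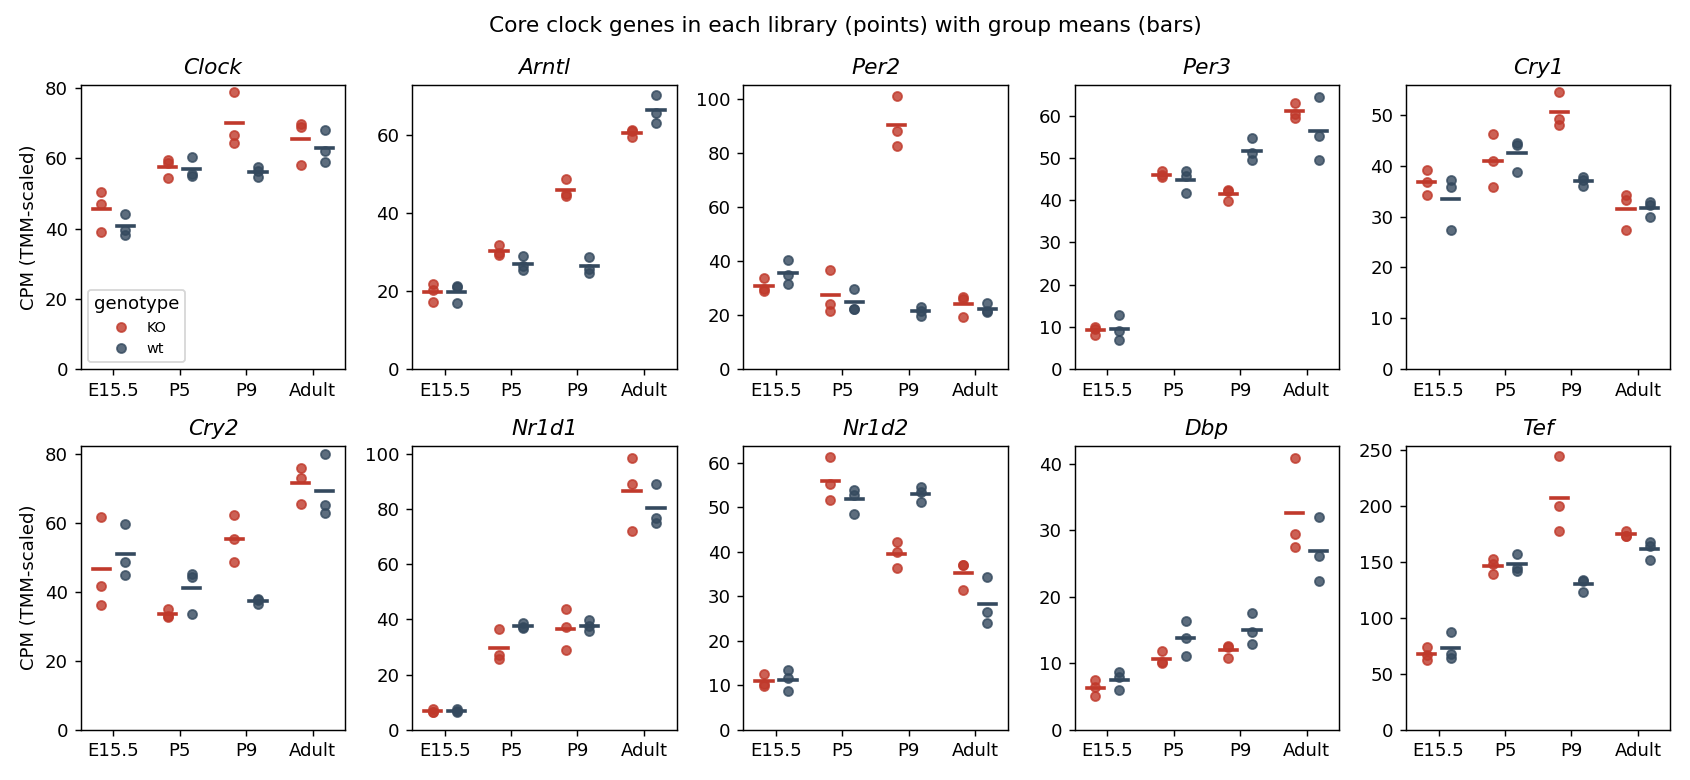
Level of each of the 10 clock genes in each library (points, CPM scaled by TMM, linear axes from 0) at 4 stages, KO left of wt, with bars at the group means. At P9 the KO libraries of Per2 sit between 82.4 and 101 CPM and the wt libraries between 19.5 and 23.1 CPM.

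Of the positive arm, Arntl had 45.0, 44.4 and 48.7 CPM in the P9 KO libraries and 28.8, 25.5 and 24.7 CPM in the P9 wt libraries. Every KO library lay above every wt library, and the log2 difference was 0.80 ± 0.11 (SE, n = 3 each; adjusted p = 4e-06). Clock, which encodes the partner of BMAL1, had 66.8, 64.5 and 78.9 CPM in KO and 57.5, 56.5 and 54.7 CPM in wt. The groups did not overlap, but the third KO library stood highest, and the log2 difference of 0.32 ± 0.11 (adjusted p = 0.027) fell to 0.21 (adjusted p = 0.17) without it. The call for Clock was also lost when any 1 of the 3 P9 wt libraries was left out (adjusted p of 0.056 to 0.084), in a fit of the 6 P9 libraries alone (0.074) and without the filter on low counts (0.093).

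Of the negative arm, Per2 had 101, 82.4 and 88.0 CPM in the P9 KO libraries and 19.5, 21.6 and 23.1 CPM in the P9 wt libraries. The lowest KO library was far above the highest wt library, and the log2 difference was 2.07 ± 0.17 (adjusted p = 3.7e-09). Without any 1 of the 6 libraries it was 1.98 to 2.13. Per3, a paralogue with a minor part in the loop, had 39.9, 42.3 and 42.2 CPM in KO and 49.5, 51.1 and 54.7 CPM in wt, lower in every KO library. Its log2 difference of -0.32 ± 0.14 did not pass (adjusted p = 0.090), but did in a fit of the 6 P9 libraries alone (-0.33, adjusted p = 0.029). Cry1 and Cry2 encode the cryptochromes that inhibit CLOCK and BMAL1. Cry1 had 49.2, 54.6 and 48.0 CPM in KO and 36.0, 37.3 and 37.9 CPM in wt, a log2 difference of 0.45 ± 0.12 (adjusted p = 0.0072). Cry2 had 55.3, 48.7 and 62.2 CPM in KO and 37.6, 36.5 and 37.8 CPM in wt, a log2 difference of 0.57 ± 0.16 (adjusted p = 0.0093). For both genes the KO libraries lay above the wt libraries without overlap.

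The REV-ERB genes, which repress Arntl, were not higher in P9 KO. Nr1d1 had 37.1, 29.1 and 43.7 CPM in KO and 35.8, 37.7 and 39.8 CPM in wt. The KO libraries spread on both sides of the wt libraries, and the log2 difference was -0.05 with a 95% interval of -0.35 to 0.25. Nr1d2 had 42.2, 39.9 and 36.4 CPM in KO and 54.5, 53.4 and 51.1 CPM in wt. It fell by 0.43 on the log2 scale (SE 0.14; adjusted p = 0.021), with every KO library below every wt library. The call for Nr1d2 was lost without the first wt library (adjusted p = 0.067), the second wt library (0.056) or the third KO library (0.072).

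Of the PAR bZIP genes, Tef had 199, 245 and 178 CPM in P9 KO and 123, 133 and 134 CPM in P9 wt. The KO libraries lay above the wt libraries and were spread more widely, and the log2 difference was 0.67 ± 0.11 (adjusted p = 6.7e-05). Dbp, a strongly rhythmic output of the dimer in many tissues, had 12.6, 12.4 and 10.7 CPM in KO and 12.9, 14.7 and 17.6 CPM in wt, with the highest KO library just under the lowest wt library. Its log2 difference of -0.33 ± 0.19 did not pass (adjusted p = 0.21).

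**Figure D3:**
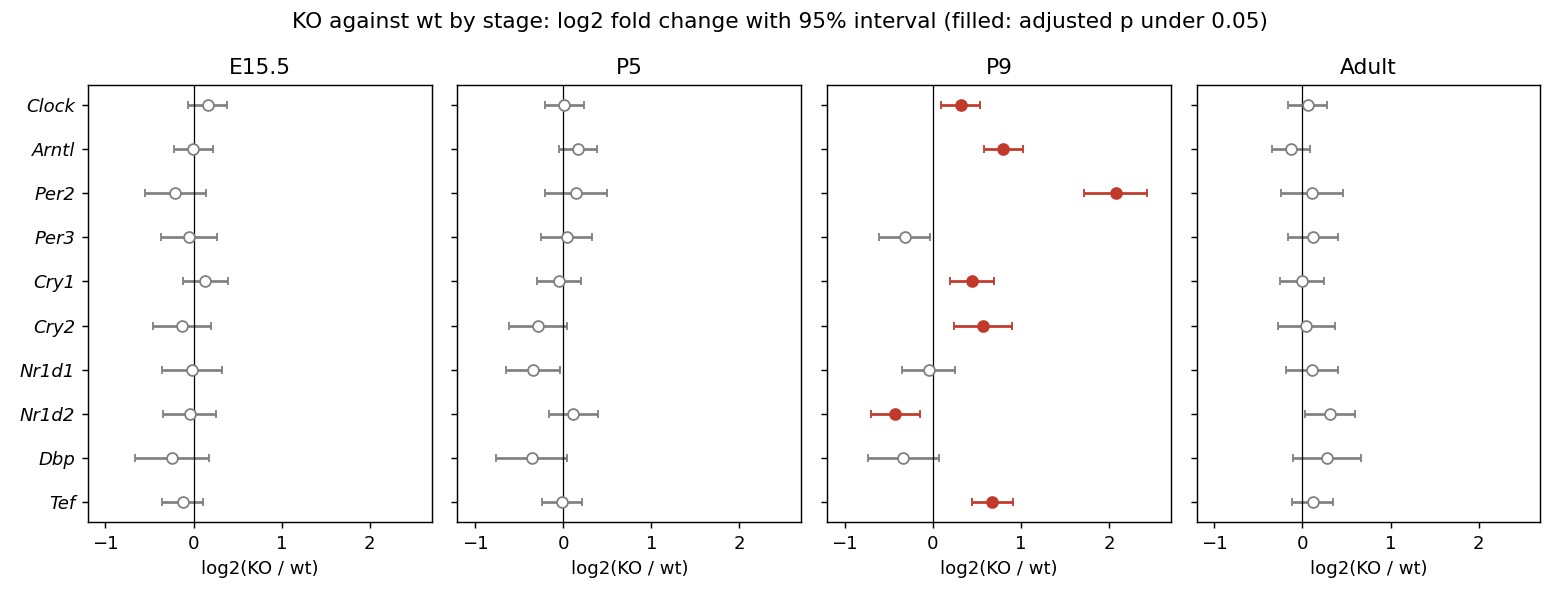
Log2 fold change of KO over wt for each clock gene at each stage (points, positive where KO is higher) with its 95% interval; filled points passed an adjusted p of 0.05. The 7 filled points are all at P9, from -0.43 for Nr1d2 to 2.07 for Per2.

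These P9 differences depend in part on what the libraries are scaled to. Scaled to the summed counts of the 9 endothelial markers in place of TMM, log2 differences of all genes moved by -0.24, and 3 clock genes passed as higher and 3 as lower. Per2 (1.85), Arntl (0.58) and Tef (0.43) were still called higher. Clock (0.10, adjusted p = 0.66), Cry1 (0.21, adjusted p = 0.29) and Cry2 (0.35, adjusted p = 0.21) no longer passed. Nr1d2 (-0.66), Per3 (-0.55, adjusted p = 0.0065) and Dbp (-0.57, adjusted p = 0.039) were called lower. Over all genes this scaling called 5.94% higher and 25.8% lower. By TMM the 9 markers themselves differed between KO and wt in both directions, 3 higher and 2 lower, from -0.44 to 0.52.

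Markers of other cell types moved with genotype at P9 too. The 6 pericyte markers summed to 686 to 1701 CPM in KO and 2644 to 3645 CPM in wt, with 3 of the 6 lower. The 4 neural progenitor markers summed to 348 to 378 CPM in KO and 640 to 672 CPM in wt, but the median log2 difference of the list was 0.25, with 1 gene called lower and 3 not called. The 4 smooth muscle markers summed to 7.23 to 14.04 CPM in KO and 21.7 to 26.3 CPM in wt, with 2 of the 3 tested lower. The 6 astrocyte markers summed to 623 to 955 CPM in KO and 468 to 503 CPM in wt, with 4 higher. All 4 fibroblast markers were called, 3 lower and 1 higher, with a median of -1.41, and their sums overlapped, at 62.8 to 120 CPM in KO and 84.4 to 110 CPM in wt. No marker of these 5 lists was at 0 in all libraries of either P9 group. In bulk RNA, fewer cells of a type and less RNA per cell cannot be told apart, and the part of these cells in the clock result was not tested.

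Genes that glucocorticoids are known to induce, a list chosen with earlier results of these data known, were also higher in P9 KO. Of these, 15 of 15 passed, with a median log2 fold change of 1.96, where 13.5% of all genes passed as higher. Zbtb16, a zinc finger factor, averaged 137 CPM in KO and 2.98 CPM in wt (log2 fold change 5.46, adjusted p = 1.3e-11). Map3k6, a stress kinase, averaged 189 and 3.35 CPM (5.77), and Klf9, a Krüppel-like factor, 95.5 and 24.5 CPM (1.96). None of the 15 passed at E15.5, P5 or in Adult, where only 0.548%, 0.53% and 0.0874% of all genes passed. Of 10 immediate early genes, 10 were higher in P9 KO (median 0.91) and none passed at the other stages, against the same shares of all genes. The part of these lists in the clock result was not tested.

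**Figure D4:**
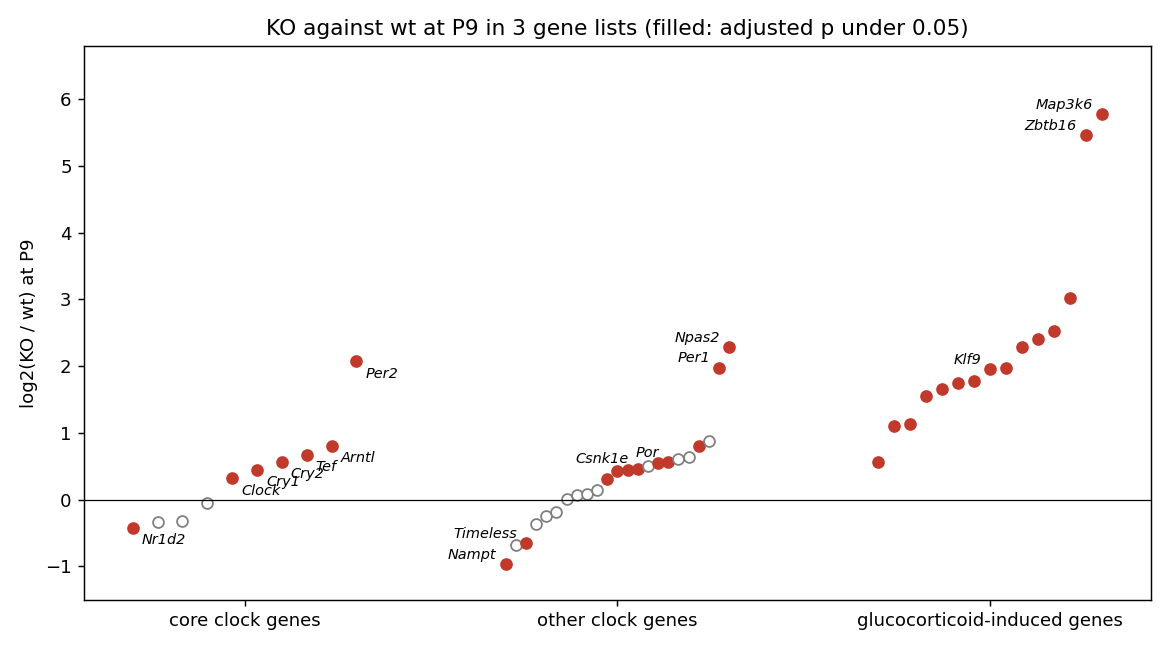
Log2 fold change of KO over wt at P9 for the genes of 3 lists (columns; genes in order of their value); filled points passed an adjusted p of 0.05. Per1 stands in both the second and the third list. Per2, Per1 and Npas2 lie near 2, most other clock genes between -1 and 1, and all 15 glucocorticoid-induced genes lie above 0.

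Of 24 further gene symbols of the clock and its outputs, 23 were found and tested. The symbol not found, Gm129, is an older name of Ciart, which was tested. At P9 9 were higher and 2 lower in KO, with a median of 0.43, where 13.5% of all genes were higher and 14.6% lower. Per1, the period gene most readily induced by acute stimuli, had 439, 473 and 484 CPM in the P9 KO libraries and 109, 105 and 141 CPM in the P9 wt libraries. No library overlapped, and the log2 difference of 1.98 ± 0.17 (adjusted p = 6.1e-09) was close in size to that of Per2. Npas2, the paralogue of Clock, had 9.42, 6.86 and 8.74 CPM in KO and 1.44, 1.87 and 1.50 CPM in wt (2.28 ± 0.28, adjusted p = 1.1e-06). Csnk1e, a kinase of the PER proteins, averaged 219 CPM in KO and 159 CPM in wt (0.46, adjusted p = 0.00016), and Por, an oxidoreductase and clock output, 208 and 141 CPM (0.56, adjusted p = 0.00047). Nampt, the rate-limiting enzyme of NAD salvage and an E-box target, went down, with 610, 576 and 540 CPM in KO and 1149, 1214 and 1005 CPM in wt (-0.96 ± 0.15, adjusted p = 3.3e-05). Timeless, mainly known for DNA replication, averaged 48.0 and 75.6 CPM (-0.66, adjusted p = 0.00044).

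At the other stages no clock gene passed. At E15.5, where 0.548% of all genes passed, 0 of the 10 did, none had an unadjusted p under 0.05, and log2 differences ran from -0.24 to 0.16. At P5 the background was 0.53%, again 0 passed, and 1 had an unadjusted p under 0.05, Nr1d1, with 25.7, 36.5 and 27.0 CPM in KO and 37.4, 37.0 and 38.7 CPM in wt (-0.34 ± 0.15, adjusted p = 0.55). In Adult 0.0874% of all genes passed and 0 of the 10, and Nr1d2 had an unadjusted p of 0.032 (0.31 ± 0.14, adjusted p = 1). DESeq2 and limma, like edgeR, called 0 clock genes at these 3 stages. For Per2 the 95% interval of the log2 difference was -0.55 to 0.14 at E15.5, -0.20 to 0.50 at P5 and -0.25 to 0.46 in Adult, each short of the 2.07 of P9.

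The difference between stages was tested as an interaction, which 13.5% of all genes and 5 of the 10 clock genes passed. The schedule of tamoxifen or the time since it also differed between the stages, and the dissociation kit changed between P5 and P9. Neither can be told apart from stage. The KO effect on Per2 was larger at P9 by 2.28 on the log2 scale than at E15.5, by 1.92 than at P5 and by 1.96 than in Adult (interaction adjusted p = 9.1e-07). For Arntl the same differences were 0.80, 0.63 and 0.93 (adjusted p = 0.00036), and for Tef 0.80, 0.69 and 0.56 (adjusted p = 0.0036). These 9 differences each passed, where 15.8% of all genes passed for P9 against E15.5, 15.7% against P5 and 13.2% against Adult. Cry2 (adjusted p = 0.044) and Nr1d2 (adjusted p = 0.048) were near the threshold and lost it in many fits without 1 library; Nr1d2 also lost it with DESeq2 size factors (adjusted p = 0.088), limma (0.052) and the replicate block (0.075). With libraries scaled to endothelial markers, Arntl (adjusted p = 0.051), Tef (0.074) and Cry2 (0.37) did not pass, and Per2 and Nr1d2 did. The interaction was not passed by Cry1 (0.15), Dbp (0.27), Per3 (0.41), Nr1d1 (0.45) or Clock (0.47). Averaged over the 4 stages, 2 clock genes were called, Arntl (0.21 ± 0.05, adjusted p = 0.013) and Per2 (0.53 ± 0.08, adjusted p = 0.00018), where 8.67% of all genes passed. Both averages include the P9 values, and both genes passed the interaction. The averaged call for Arntl was lost with endothelial scaling (0.17, adjusted p = 0.11) and without the filter on low counts (adjusted p = 0.079).

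In wt mice, 9 of the 10 clock genes differed between P5 and E15.5, 8 higher and 1 lower at P5, where 66.6% of all genes passed, 36.2% higher and 30.4% lower. Of these rises, those of Nr1d1, Per3 and Nr1d2 held when libraries were scaled to endothelial markers, and those of Tef, Dbp, Clock, Arntl and Cry1 turned into falls. With that scaling all 10 passed, 3 higher and 7 lower at P5, and of all genes 2.87% were called higher and 83.4% lower. This scaling moved log2 differences of all genes by -1.75; the endothelial markers summed to 13144 to 14579 CPM in P5 wt and 3725 to 4377 CPM in E15.5 wt, and neuronal markers to 91.4 to 151 CPM and 1043 to 1275 CPM. Stage, the schedule of tamoxifen and the share of endothelial RNA changed together between these stages and cannot be told apart.

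Nr1d1 had 37.4, 37.0 and 38.7 CPM in P5 wt and 6.74, 7.67 and 6.37 CPM in E15.5 wt. The libraries of each stage lay close together and far from those of the other, with a log2 difference of 2.42 ± 0.16 (adjusted p = 1.3e-11), which was 0.70 (adjusted p = 0.0014) under the endothelial scaling. Nr1d2 had 48.6, 54.0 and 52.7 CPM in P5 wt and 8.79, 11.6 and 13.3 CPM in E15.5 wt (2.19 ± 0.14, 0.46 with endothelial scaling). Both REV-ERB repressors were thus low in the embryonic fraction in every library. Per3, with the paired D-boxes shown above, had 45.7, 41.8 and 47.0 CPM in P5 wt and 9.01, 12.8 and 6.78 CPM in E15.5 wt (2.22 ± 0.15, 0.50 with endothelial scaling). Per2 was the gene that fell, with 22.1, 22.2 and 29.6 CPM in P5 wt and 31.3, 34.7 and 40.3 CPM in E15.5 wt (-0.52 ± 0.17, adjusted p = 0.0089; -2.26 with endothelial scaling). The libraries of both period genes did not overlap between the stages, and they moved in opposite directions under both scalings.

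Tef, Dbp, Clock, Arntl and Cry1 had smaller log2 rises of 1.01, 0.86, 0.49, 0.45 and 0.34, which became -0.73, -0.87, -1.26, -1.30 and -1.41 under the endothelial scaling, so their direction rests on the scaling. Cry2 did not pass (-0.31, adjusted p = 0.085), but was called lower under the endothelial scaling (-2.05).

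Between P9 and P5 in wt, 0 of 10 clock genes passed, where 5.12% of all genes did, and none had an unadjusted p under 0.05. Log2 differences ran from -0.20 for Per2 to 0.21 for Per3. DESeq2 and limma also called 0. The dissociation kit changed between these stages, and kit and stage cannot be told apart. The widest of the 95% intervals, that of Dbp, was -0.27 to 0.53.

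From P9 to Adult in wt, 5 clock genes rose and 1 fell, where 61.1% of all genes passed, 30.9% higher and 30.3% lower. Arntl had 63.0, 70.2 and 65.7 CPM in Adult wt and 28.8, 25.5 and 24.7 CPM in P9 wt (1.33 ± 0.11, adjusted p = 2.3e-10). Nr1d1 had 76.9, 75.1 and 89.3 CPM in Adult wt and 35.8, 37.7 and 39.8 CPM in P9 wt (1.09 ± 0.14). The lowest Adult library was above the highest P9 library for both the activator and its repressor. Cry2 averaged 69.3 ± 9.30 CPM in Adult wt and 37.3 ± 0.684 CPM in P9 wt (SD, n = 3 each; log2 difference 0.89), and Dbp 26.8 ± 4.83 and 15.1 ± 2.36 CPM (0.83). Tef rose by 0.31, and lost its call without the first P9 wt library (adjusted p = 0.072), the first Adult wt library (0.062) or the second (0.051). Nr1d2 fell, with 34.2, 24.1 and 26.3 CPM in Adult wt and 54.5, 53.4 and 51.1 CPM in P9 wt (-0.91 ± 0.14, adjusted p = 5e-06).

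The directions of these 6 genes held under the endothelial scaling, which moved all genes by 0.48 on the log2 scale and added Clock (0.64), Per3 (0.60) and Per2 (0.54) to the genes called higher; of all genes it called 49.3% higher and 14.1% lower. Oligodendrocyte markers summed to 20275 to 24496 CPM in Adult wt and 1015 to 1869 CPM in P9 wt. Ependyma and choroid plexus markers summed to 5402 to 6218 CPM in Adult wt and 1658 to 2483 CPM in P9 wt, and astrocyte markers to 1063 to 1688 and 468 to 503 CPM. Pericyte markers summed to 466 to 575 and 2644 to 3645 CPM. The part of these cells in the differences was not tested. The schedule of tamoxifen in Adult differed from those at P9 and E15.5, and schedule and stage cannot be told apart. The dissociation kit also differed between Adult and E15.5, and it cannot be told apart from stage there. Against E15.5, Adult wt libraries had 11.4-fold more Nr1d1 (3.51 on the log2 scale), 5.85-fold more Per3 and 3.54-fold more Dbp, where 69.6% of all genes passed. With endothelial scaling these were 4.56-, 2.33- and 1.40-fold, and Arntl was 1.32-fold higher. Clock, Cry2, Nr1d2 and Tef turned from higher to lower, of which Clock and Cry2 passed. For Adult against E15.5 this scaling moved log2 differences of all genes by -1.35, and called 10.8% of all genes higher and 73.4% lower.

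**Figure D5:**
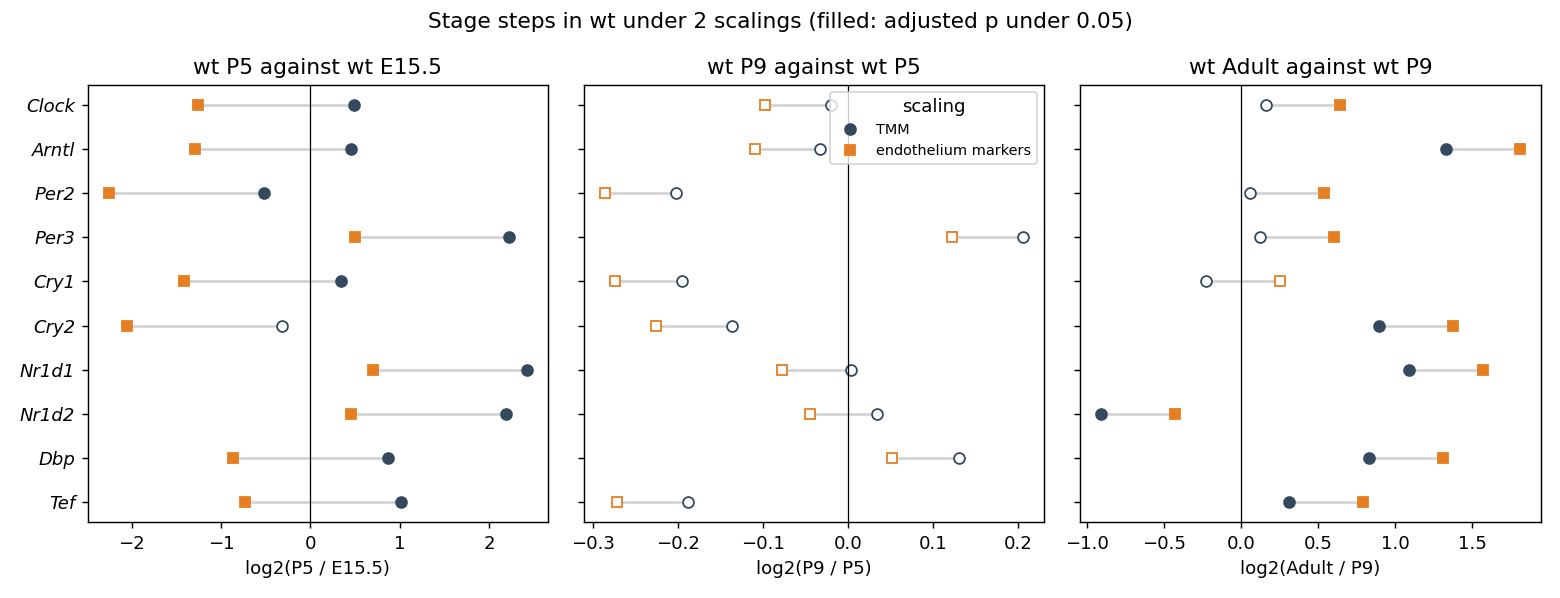
Log2 fold change of the later over the earlier stage in wt for each clock gene at 3 steps, scaled by TMM (circles) or to the endothelial markers (squares); filled symbols passed an adjusted p of 0.05, and each panel has its own axis range. At the first step 5 genes lie above 0 by TMM and below 0 by the endothelial scaling, no symbol is filled at the second, and Arntl lies farthest right at the third, at 1.33 by TMM and 1.81 by the endothelial scaling.

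Within KO mice, 5 clock genes rose and 1 fell between P9 and P5, where 34.5% of all genes passed, 17.5% higher and 17% lower. These values share the P9 KO libraries with the comparison of KO and wt at P9. As in wt, the dissociation kit changed between P5 and P9, and the schedule of tamoxifen between P9 and Adult. Neither can be told apart from stage. Per2 averaged 90.5 ± 9.58 CPM in P9 KO and 27.3 ± 8.09 CPM in P5 KO (SD, n = 3 each; log2 difference 1.72, adjusted p = 4.6e-08). Arntl (0.60), Cry2 (0.72), Tef (0.50) and Clock (0.28) rose, and Nr1d2 fell (-0.50). Between Adult and P9 in KO, 4 rose and 2 fell, where 59.6% of all genes passed, 30.4% higher and 29.2% lower. Per2 averaged 23.98 ± 4.10 CPM in Adult KO, which was -1.91 on the log2 scale relative to P9 KO (adjusted p = 1.7e-09). Cry1 also fell (-0.68), and Dbp (1.45), Nr1d1 (1.24), Per3 (0.56) and Arntl (0.40) rose. Clock lost its call between P9 and P5 in 5 of the 6 fits without 1 library (adjusted p of 0.057 to 0.23).

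Scaling to the endothelial markers, tried for these steps after seeing the data, moved log2 differences within KO by -0.31 at P9 against P5 and by 0.81 in Adult against P9. Per2 was still called higher in P9 KO than in P5 KO (1.41) and lower in Adult KO than in P9 KO (-1.12). Between P9 and P5 KO the calls of Arntl (0.30, adjusted p = 0.061), Cry2 (0.43, adjusted p = 0.10), Tef (0.18, adjusted p = 0.24) and Clock (-0.01, adjusted p = 0.96) were lost, Nr1d2 was still called lower, and Per3 was called lower (-0.45). Between Adult and P9 KO, Cry1 (0.13, adjusted p = 0.43) lost its call and turned round. At that step 8 genes were called higher, from Tef (0.57) to Dbp (2.24). The share of all genes called under this scaling was not counted within KO, so these calls cannot be set against it. In wt, the same scaling called 49.3% of all genes higher and 14.1% lower in Adult against P9.

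Levels of different genes can be compared per length only, for which the authors' TPM were used. In E15.5 wt the order of mean TPM was Cry1 (44.4), Tef (37.1), Cry2 (32.2), Arntl (27.1), Per2 (24.1), Clock (11.8), Dbp (10.2), Nr1d1 (8.99), Nr1d2 (8.96) and Per3 (3.96). Every neighbour from Cry1 to Per2 overlapped in range, Clock stood apart from Per2, and Per3, at 2.79 to 5.32 TPM, stood apart below Nr1d2. In Adult wt the order was Nr1d1 (90.6), Arntl (79.2), Tef (71.2), Cry2 (38.0), Cry1 (36.5), Dbp (31.5), Per3 (20.4), Nr1d2 (19.6), Clock (16.0) and Per2 (13.2). The first 3 did not overlap with each other or with Cry2, whereas Cry2, Cry1 and Dbp overlapped as neighbours, as did Per3, Nr1d2, Clock and Per2 in turn. Nr1d1 thus had the highest TPM of the 10 in Adult wt and the third lowest in E15.5 wt. In P9 KO, Per2 averaged 47.7 ± 6.34 TPM, against 11.8 ± 1.21 TPM in P9 wt (SD, n = 3 each), where it was the lowest of the 10.

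The genes whose pattern over the 24 libraries was most like that of Arntl, on the log2 CPM scale among the 12847 genes that averaged 50 counts or more, were Stxbp6 (Pearson r = 0.98), Fam107a, Fam134b, Acbd4 and Micall1 (0.97 to 0.98). For Dbp they were Clu, Fgfrl1, Car14, Trpv4 and Epn3 (r of 0.96). With each group's mean subtracted, which leaves only the spread within groups, they were Pdxk, Zcchc24, Impa2, Pcp4l1 and Ncald for Arntl (0.83 to 0.88) and Spint2, Tut1, Map1lc3a, Slc2a12 and Rsph1 for Dbp (0.78 to 0.80). These are descriptions over libraries that share groups and cell makeup, and no clock gene was among them.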

How the data were processed

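RNA of mouse brain endothelial fractions was measured in 24 libraries. The deposited tables give, per gene, the authors' raw counts of reads on 1 strand, with the authors' FPKM and TPM columns. Trim Galore 0.4.1, FastQC, STAR 2.5.3a, SAMtools 1.5 and mm10 are named in the submitters' processing notes; the counting tool and annotation release are not given in the sources used here. Counts were tested, TPM served only to compare levels between genes, and FPKM were not used. Libraries were grouped by the labels' genotype and stage.

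Genes whose mean reached 10 counts in any of the 8 groups were kept. Counts were scaled by TMM and fitted with edgeR 4.0.16 (R 4.3.3), by its quasi-likelihood test with 1 mean per group over all libraries. Tests were two-sided, with Benjamini and Hochberg adjustment over all 17159 genes tested, a threshold of 0.05 and a prior count of 2 for log2 values. The code was tested on simulated data. Alternatives were DESeq2 size factors, scaling to endothelial markers, no filter, limma 3.58.1, DESeq2 1.42.0, only the libraries compared, the replicate block and leaving out libraries. In the fit over all libraries, p-values and SEs rest on the spread between the 3 libraries of each group, taken over all 8 groups together. They do not measure the spread of the compared groups alone. Named genes were the clock genes, up to 6 called genes of the further clock list per comparison and 4 of the glucocorticoid list, by smallest adjusted p. The members and lists were chosen with earlier results of these data known.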

Additional observations from a re-analysis of the deposited data

Results flagged for a closer look

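The KO effect on 5 clock genes differed between stages by the interaction test of edgeR over all genes, which 13.5% of all genes passed. The adjusted p was 9.12e-07 for Per2, 0.000365 for Arntl, 0.00355 for Tef, 0.0436 for Cry2 and 0.0484 for Nr1d2. Per2, Arntl and Tef kept this call in each of 24 fits without 1 library, but Cry2 in only 7 and Nr1d2 in only 8. With libraries scaled to endothelial markers, Arntl (adjusted p = 0.051), Tef (0.074) and Cry2 (0.37) did not pass the interaction, and Per2 and Nr1d2 did. For Per2, Arntl and Tef the log2 difference of KO and wt was larger at P9 than at each of the other 3 stages, and 9 of those 9 pairs of stages passed on their own. For Cry2 it was larger at P9 than at E15.5 by 0.70 and than at P5 by 0.86, which passed, and than in Adult by 0.53 (adjusted p = 0.13). For Nr1d2 it was lower at P9 than in Adult by -0.74 (adjusted p = 0.012), and the differences from E15.5 (-0.38, adjusted p = 0.22) and P5 (-0.54, adjusted p = 0.058) did not pass. Stage, the schedule of tamoxifen, the time since it and the dissociation kit cannot be told apart in these differences.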

How the results depend on the processing

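Of 1680 values of single clock genes under the alternatives, 1585 kept their side of the threshold without a called value changing sign, although 63 of these, past it in neither fit, did change sign; 66 lost the call, 20 gained one and 9 turned round. All 9 turned under scaling to the endothelial markers in wt: Clock (-1.26), Arntl (-1.30), Cry1 (-1.41), Dbp (-0.87) and Tef (-0.73) at P5 against E15.5, and Clock (-0.72), Cry2 (-0.90), Nr1d2 (-0.018) and Tef (-0.21) in Adult against E15.5. The number of clock genes that passed the interaction was 5 of 10, where 13.5% of all genes passed. It was 2 with that scaling (17.3% of all genes) and 3 to 5 without any 1 library (9.76% to 15%). The number called in the average over stages was 2, where 8.67% of all genes passed. It was 1 with that scaling (8.08%), 1 without the filter on low counts (5.65%) and 2 to 3 without any 1 library (6.83% to 10.6%). At P9 the number called was 7 (28% of all genes), and 5 to 7 without any 1 of the 6 libraries compared (21.3% to 29.7%). Per2, Arntl, Tef, Cry1 and Cry2 were called in each of those 6 fits. P9 calls over all genes ranged from 3650 without the first wt library to 5455 with the endothelial scaling. DESeq2 size factors moved log2 values by at most 0.09, and with them Nr1d2 lost the interaction (adjusted p = 0.088), Cry1 lost its call at P5 against E15.5 (0.25, adjusted p = 0.073) and Cry2 was called lower (-0.41). Leaving out both E15.5 libraries numbered 3 was chosen after seeing the data; Tef averaged over stages then passed (0.18, adjusted p = 0.020).

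Deviations of same-numbered KO and wt libraries had an r of -0.08 to 0.49, over 0.1 in 2 of 12 pairs. Both were at E15.5, for numbers 2 (0.37) and 3 (0.49), with 0.06 for number 1. The numbers were therefore not taken as pairs. At E15.5 KO number 1 and wt number 2 also had an r of 0.25, and KO numbers 1 and 2 had -0.27 and -0.37 with wt number 3. Deviations of 3 libraries from their group mean sum to 0, so these r depend on each other. The libraries numbered 3 deviated together, and a shared deviation of those numbered 2 cannot be told apart from this. With the replicate block, 7 of the 10 clock genes were called at P9 (28.8% of all genes) and 3 in the average over stages (9.5%). The interaction was then passed by 4 (13.9%) and wt P5 against wt E15.5 by 10 (66.5%). The log2 difference of Per2 at P9 was 2.07 with this block.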

Other observations

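The further clock genes also differed between stages in wt, without a test of the scaling. Between P5 and E15.5, 11 of 23 were higher and 7 lower, where 66.6% of all genes passed. Scaling to the endothelial markers moved log2 differences of all genes by -1.75 at this step. Rises near or below that size, such as those of Bhlhe40 and Rora, therefore rest on the scaling. Nampt averaged 1056 CPM in P5 wt and 181 CPM in E15.5 wt (2.55), Bhlhe40, a repressor at E-boxes, 103 and 27.9 CPM (1.87), Rora, an activator of Arntl, 46.8 and 16.4 CPM (1.50), and Nfil3, the repressor at D-boxes, 10.3 and 66.4 CPM (-2.67). Between P9 and P5, 1 passed, Bhlhe40 (0.80), where 5.12% of all genes did. Between Adult and P9, 8 were higher and 8 lower, where 61.1% of all genes passed. Npas2 averaged 13.7 CPM in Adult wt and 1.60 CPM in P9 wt (2.998), Bhlhe41 26.0 and 2.96 CPM (3.06), Usp2, a deubiquitinase and clock output, 43.3 and 5.38 CPM (2.98), Nampt 207 and 1123 CPM (-2.44), and Wee1, a cell cycle kinase and E-box target, 2.998 and 21.4 CPM (-2.79).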
